A study of Mus musculus with 12 samples.

Results

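Macromolecules enter and leave the nucleus through the nuclear pore, and the genes of this machinery were followed on expression arrays in 3T3-L1 cells, a mouse fibroblast line that turns into adipocytes after a hormone mixture. The members were chosen by gene symbol only. They were the genes named Ipo, Kpna, Kpnb, Xpo, Tnpo and Nup followed by a number (or, for Xpot, a letter), together with Cse1l, Ran, Rcc1 and Rangap1. Of 47 mouse genes that fitted this rule in the reference table, 46 had a probe, and they were measured by 80 of the 41174 non-control probes on the array, on which 18217 genes had a symbol. Kpna7 had no matched probe. For 25 of the genes there were several probes, and unless stated otherwise the values below are of the probe with the highest mean signal. Levels of different probes were not set against each other.

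Cells were taken at 0 h, after growth to confluence in newborn bovine serum and before any hormone (0 h), or after 6 h in medium with fetal bovine serum, 0.5 mM IBMX (a phosphodiesterase inhibitor), 1 µM dexamethasone (a synthetic glucocorticoid) and 5 µg/ml insulin (6 h). The groups therefore differed in serum as well as in hormones. Lysates were spun through sucrose gradients in cycloheximide, which holds ribosomes on their mRNA, and non-polysomal RNA (NP) was the pool of gradient fractions 5 to 7, polysomal RNA (P) that of fractions 9 to 11. Each of the 4 groups (NP 0 h, P 0 h, NP 6 h, P 6 h) had 3 biological replicates of this single cell line, giving 12 one-color arrays on 3 slides, and each slide held 1 replicate of every group. RNA per cell and the number of cells cannot be told apart in such pooled lysates.

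Cargo proteins are carried through the pore by receptors of the importin and exportin families. Importin alphas recognise the classical nuclear localisation signal and couple it to importin beta, while most other import receptors and the exportins bind their cargo directly. The small GTPase Ran, loaded with GTP in the nucleus by Rcc1 and made to hydrolyse it in the cytoplasm by Rangap1, gives the transport its direction. The pore itself is built of nucleoporins in stacked rings, with a Y-shaped scaffold complex, an inner ring, a central channel of FG-repeat proteins, filaments on the cytoplasmic side and a basket on the nuclear side.

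All levels are log2 intensities after an offset per array, taken from 10 spike-in transcripts, had been subtracted. The offset was 0.10 ± 0.07 (SD, n = 3) in NP 0 h, 0.13 ± 0.02 in P 0 h, 0.12 ± 0.04 in NP 6 h and -0.35 ± 0.14 in P 6 h, so that the scaling raised the 3 P 6 h arrays relative to all the others. Per the methods the spike-ins were dosed for 1 µg of RNA, so a level is a signal per spike-in at that dose and not the share of an mRNA that lay in a pool. Of the 10 fibroblast or preadipocyte markers examined, 10 were well above background on every array, and so were 4 of 6 adipocyte markers, with Lep and Cfd above background on none. Among markers of other cells, 2 of 4 leukocyte genes, 0 of 3 endothelial genes, 2 of 3 muscle genes and 1 of 3 epithelial genes were well above background on every array. The transport genes were mostly well measured. Of their 80 probes 65 (81.25%) were well above background on all 12 arrays, against 49.5% of all probes, 73 were above it in all replicates of some group, and 2 (Nup210 and a second Xpo1 probe) on no array.

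In resting cells most mRNAs of nuclear transport gave a higher spike-in scaled signal in polysomal than in non-polysomal RNA, although the number called depended on the scaling (67 of 80 probes, and 28 with arrays scaled to their 75th percentile). The polysomal signal exceeded the non-polysomal signal with an adjusted p below 0.05 and a log2 difference above 1 (the rule for a call throughout) in 67 of the 80 probes (83.75%), which represented 40 genes. Over all probes on the array this share was 27.4%, and it was 46.5% over the probes well above background on all arrays. No member probe was called in the opposite direction, against 9.81% of all probes. The median P minus NP difference at 0 h was 1.73 for the member probes and 0.15 for all probes. For the probes well above background on all arrays it was 0.88.

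The inner ring scaffold Nup93 showed the highest value, 3.28, corresponding to a 9.73-fold higher polysomal signal. Its NP 0 h arrays read 7.48, 7.54 and 7.50 and its P 0 h arrays 10.69, 10.87 and 10.81. The fractions of this probe thus did not overlap. Kpna2 (importin alpha 1) followed this pattern with a difference of 2.71, Nup88 of the cytoplasmic filaments with 2.80 and Rangap1 with 2.70.

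The exceptions were few and included several import receptors. For Ipo5, a receptor known to carry ribosomal proteins, the P minus NP difference at 0 h was 0.69 at the main probe and -0.05 at its second probe. Tnpo2, a close relative of transportin 1, had 0.19. The dim Ipo7 probe, above background on 3 of 3 NP 0 h but only 2 of 3 P 0 h arrays, had -0.97, and it was the only member probe whose P 0 h arrays all lay below its NP 0 h arrays. Nup210 and Nup210l were not above background in either fraction at 0 h. For 4 further probes that were above background on every P 0 h array and no NP 0 h array only bounds can be given, and these hold for the spike-in scaling alone. The polysomal signal was at least 1.54-fold higher for Xpo4, at least 1.71-fold for a second Nup98 probe, at least 2.63-fold for the second Xpo5 probe and at least 2.76-fold for the second Tnpo3 probe. With the 75th percentile the log2 differences were, in this order, -0.17, 1.15, 0.92 and 1.76.

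After 6 h the polysomal excess was called in 70 of 80 probes (87.5%), compared with 37.4% of all probes, and 1 member probe was called in the opposite direction against a background of 6.41%. That probe, the second for Nup210l, was above background on 1 array. The median difference was 2.20 for the members and 0.68 for all probes. Over the probes well above background on all arrays it was 1.32, and the polysomal excess was called in 58.95% of them. Among the main probes Tnpo2 (0.41), Ipo7 (0.66), Rcc1 (0.85), Nup153 (0.96) and Nup210 (0.52) had a difference below 1 at 6 h. Rcc1 and Nup153 had been above it at 0 h, with 1.43 and 1.38. When arrays were instead scaled to their 75th percentile, the polysomal excess was called for 28 and 38 probes at 0 h and 6 h, against 11.6% and 12.3% of all probes. The opposite was then called for 3 and 1 probes, against 26.7% and 22.2% of all probes. The difference at 0 h was lower by 0.88 to 0.89 with that scaling, and for 5 main probes (Ipo5, Nup210, Nup210l, Tnpo2 and Xpo4) it turned from above to below 0.

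**Figure D1:**
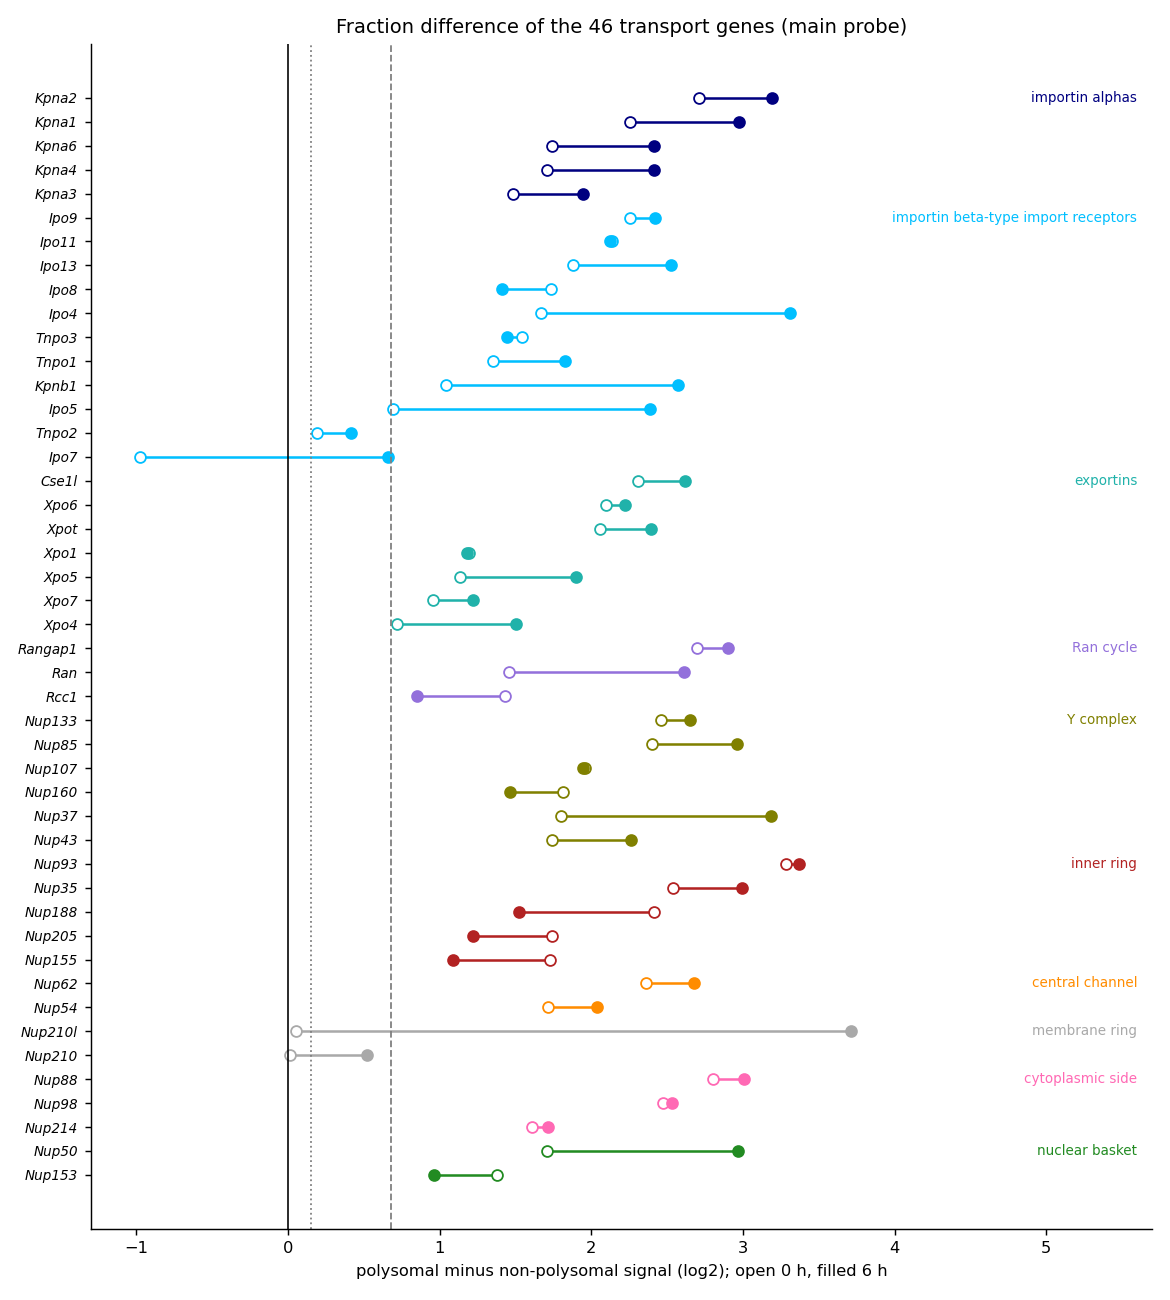
Polysomal minus non-polysomal signal (log2, horizontal axis) of the main probe of each of the 46 genes, ordered by role, with open circles for 0 h and filled circles for 6 h and a line joining both. The dotted and dashed vertical lines are the all-probe medians at 0 h (0.15) and 6 h (0.68). Most genes lie far to the right of these lines, Ipo7 starts below 0, and in the inner ring Nup188, Nup205 and Nup155 move to the left while Ipo4, Ipo5, Kpnb1, Nup37 and Nup50 move to the right.

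The change with time was then examined within each fraction. In polysomal RNA 11 of the 80 probes (13.75%, 9 genes) were called higher at 6 h, against 19.2% of all probes, and 1 was called lower, against 5.01%. The median polysomal change was 0.37 for the members and 0.54 for all probes. In non-polysomal RNA 6 probes (7.5%) were called higher against 8.09% of all probes, and 6 were called lower against 8.14%, with medians of 0.06 and 0.04. These shares were close to or below those of the whole array, while individual members differed widely. With the 75th percentile 5 member probes were called higher and 5 lower in polysomal RNA, against 8.7% and 9.89% of all probes. Each polysomal change was then lower by 0.48 to 0.49, and for 19 main probes it turned from above to below 0. These were Cse1l, Ipo11, Ipo4, Ipo9, Kpna4, Kpnb1, Nup155, Nup160, Nup214, Nup37, Nup43, Nup85, Nup88, Nup93, Nup98, Rangap1, Tnpo1, Tnpo3 and Xpo5, and no member probe turned the other way.

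The non-polysomal change was also counted for receptors and nucleoporins separately. Among 43 probes of import receptors and exportins 0 were called higher and 5 (11.63%) lower there, against 8.09% and 8.14% of all probes (15 of them had an adjusted p below 0.05 with a change below 0, and 5 with a change above 0), and the median was -0.14. Among 33 nucleoporin probes 5 (15.15%) were called higher and 1 (3.03%) lower (3 below 0 and 18 above 0 by adjusted p alone), and the median was 0.35. By adjusted p alone 8107 of 41156 probes over the array lay below 0 and 8456 above it. The polysomal medians, 0.38 and 0.34, were close to each other. No test of the difference between the families was made.

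**Figure D2:**
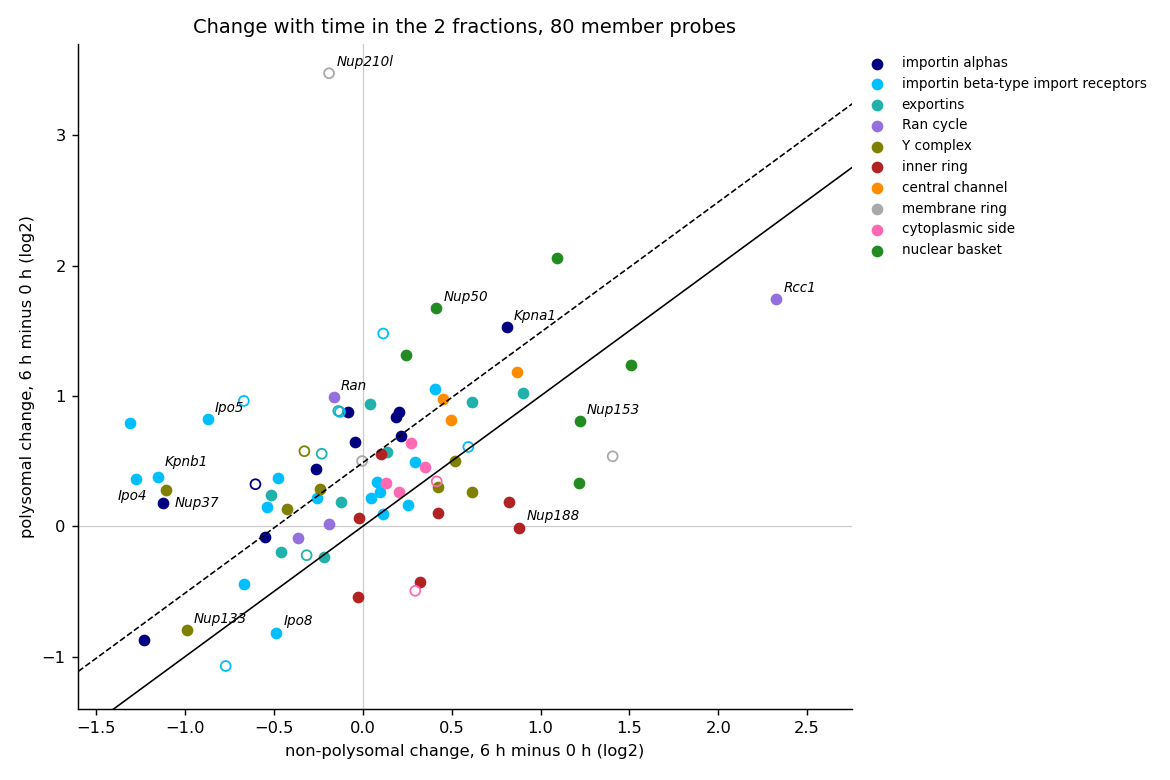
Change from 0 h to 6 h of the 80 member probes in polysomal RNA (vertical, log2) against the change in non-polysomal RNA (horizontal, log2), colored by role, with open symbols for probes not above background on all 12 arrays. On the solid line both fractions changed alike (M of 0) and the dashed line marks the all-probe median M of 0.49. Rcc1 lies far to the right below the solid line, Nup50 high above the dashed line, and Ipo4, Kpnb1 and Nup37 at the left with a non-polysomal change below -1 and a small polysomal change.

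The study's own measure of polysome recruitment was M, the polysomal change minus the non-polysomal change, or (P 6 h − NP 6 h) − (P 0 h − NP 0 h) on the log2 scale. A positive M means that the polysomal excess grew. For its list of up-regulated genes the paper also set a higher limit of M and conditions on the levels. Among these was a P signal below the NP signal at 0 h, which most member probes did not show. Those conditions were not applied to the calls below. Of the 80 member probes 12 (15%, 10 genes) were called above 1, against 12.1% of all probes and 17.6% of the probes above background on all arrays, and 0 were called below -1, against 1.31%. With the adjusted p alone, limma placed 32 of the 80 probes above 0 and 8 below it. Over the whole array it placed 13209 of 41155 probes above 0 and 1640 below it. The median M was 0.35 for the members and 0.49 for all probes, an order that turned without replicate 2 (0.45 and 0.42).

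This all-probe median depends on the scaling. With arrays scaled to the 75th percentile it was 0.06 and that of the members -0.07, and 5 member probes were then called above 1 and 5 below -1, against 3.75% and 3.48% of all probes. Each M was lower by 0.42 to 0.43 with this scaling, and for 14 main probes (Cse1l, Ipo9, Nup133, Nup214, Nup54, Nup62, Nup88, Nup93, Nup98, Rangap1, Tnpo2, Xpo6, Xpo7 and Xpot) it turned from above to below 0. An M near 0.49 is therefore described below as near the array's median. Of the 43 receptor probes 22 lay above the all-probe median, and their own median was 0.65. Of the 33 nucleoporin probes 10 lay above it, and their median was 0.10.

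**Figure D3:**
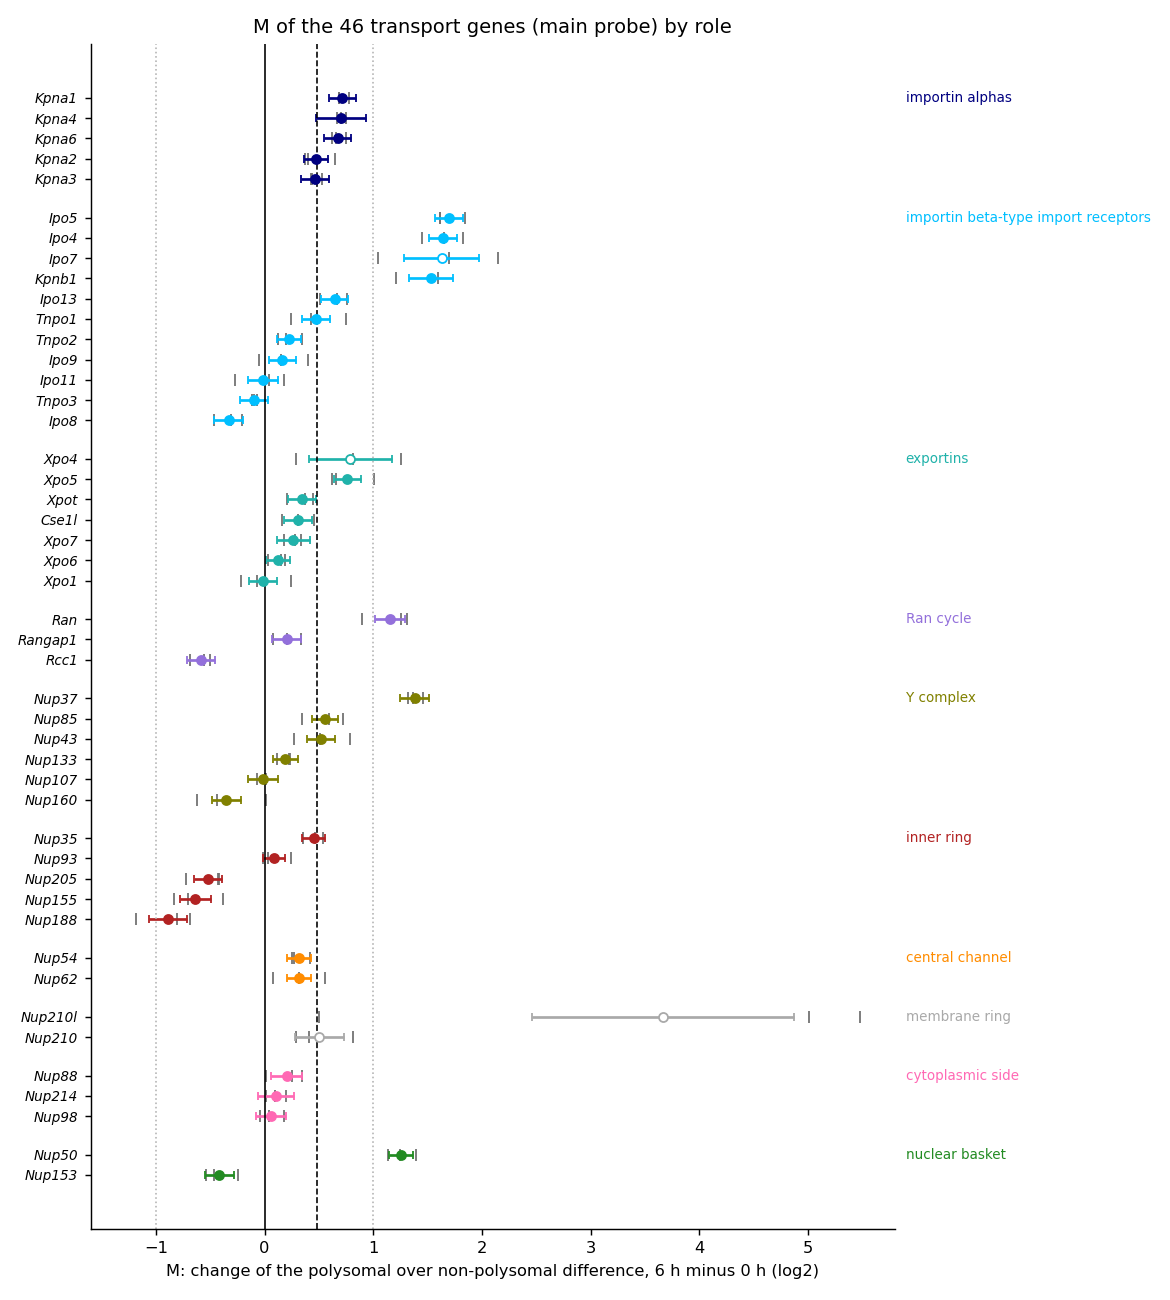
M (log2) of the main probe of each gene by role, as circle with standard error, with a vertical tick for the value within each slide. Open circles are probes not above background on all 12 arrays, the dashed line is the all-probe median of 0.49, the solid line is 0 and the dotted lines are the limits of 1 and -1. A group of import receptors (Ipo5, Ipo4, Ipo7, Kpnb1) lies between 1.53 and 1.69, Nup188, Nup155 and Nup205 lie between -0.89 and -0.52, and the 3 slides of Nup210l are spread from 0.50 to 5.48.

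Among the importin beta-type receptors 6 of 21 probes (28.57%), of 5 genes, were called above 1 in M, against 12.1% of all probes, while the median of the class, 0.47, was near that of the array. Ipo5 had the highest M of the well measured genes, 1.69 ± 0.13 (SE, adjusted p = 1.3e-05 by limma). Its NP arrays read 9.73, 9.70 and 9.57 at 0 h and 8.85, 8.73 and 8.79 at 6 h, while its P arrays read 10.22, 10.41 and 10.45 at 0 h and 11.19, 11.06 and 11.29 at 6 h. The polysomal arrays at 6 h were all above those at 0 h and the non-polysomal arrays all below. The fold change was 1.77 in polysomal RNA and 0.55 in non-polysomal RNA. A second Ipo5 probe gave a larger M of 2.10 ± 0.14, and both probes were still called with the 75th percentile (1.27 and 1.68).

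Ipo4, which carries histones and ribosomal proteins, had an M of 1.64 ± 0.13 (adjusted p = 1.5e-05). Its non-polysomal signal fell from 11.15, 11.27 and 11.34 to 10.03, 9.94 and 9.95, a change of -1.28. Its polysomal signal moved from 12.78, 13.07 and 12.90 to 13.32, 13.20 and 13.33, a change of 0.37 that turned to -0.12 with the 75th percentile. Neither fraction overlapped between the times, and most of M came from the non-polysomal side. The second Ipo4 probe gave 0.68, so the probes differed in size.

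Kpnb1, importin beta itself and the partner of the importin alphas, gave similar values. Its NP arrays fell from 11.91, 11.93 and 11.76 to 10.86, 10.79 and 10.49, and its P arrays read 12.71 and 13.11 at 0 h and 13.26, 13.19 and 13.42 at 6 h. Replicate 3 of P 0 h was marked as an outlier spot and left out, so the P 0 h mean rests on 2 arrays. M was 1.53 ± 0.21 (adjusted p = 0.00051), the non-polysomal change was -1.15 (adjusted p = 0.00011) and the polysomal change was 0.38 (adjusted p = 0.058), or -0.12 with the 75th percentile. A second, complete Kpnb1 probe gave an M of 0.85 ± 0.18.

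Ipo7, a partner of importin beta in histone and ribosomal protein import, was dim, with levels between 2.43 and 4.20. It had an M of 1.63 ± 0.34, and a second Ipo7 probe gave 1.01 with an adjusted p of 0.080. A probe of Ipo11 with an M of 1.36 was above background on 1 of 12 arrays, while the well measured Ipo11 probe had an M of -0.02. Ipo13, which works in both directions, rose in polysomal RNA by 1.05 from 11.85, 12.12 and 12.04 to 13.07, 13.03 and 13.08 and in non-polysomal RNA by 0.41, and its M of 0.65 was near the array's median. In contrast Ipo8 fell in both fractions, by 0.82 in polysomal and 0.49 in non-polysomal RNA, with P arrays of 8.81, 9.06 and 9.01 at 0 h and 8.17, 8.04 and 8.23 at 6 h that did not overlap. Its M was -0.33 (adjusted p = 0.080). The other receptors of this class (Tnpo1, Tnpo2, Tnpo3, Ipo9) had an M between -0.09 and 0.47.

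The importin alphas had a similar M at their main probes but differed in their changes with time. In polysomal RNA these ran from -0.87 to 1.53 over the 11 probes. The 5 main probes had an M between 0.46 and 0.72, and all 3 within-slide values were above 0 for each of them. The all-probe median M was also above 0 within each slide (0.41, 0.64 and 0.43). Of the 11 probes 9 had an adjusted p below 0.05, against 14849 of 41155 probes over the array. But 1 (9.091%) was called above 1, against 12.1% of all probes. Kpna1 (importin alpha 5) had the largest polysomal change, 1.53 ± 0.09 in log2 or 2.88-fold. Its P arrays rose from 9.50, 9.64 and 9.67 to 11.15, 11.03 and 11.20 and its NP arrays from 7.25, 7.46 and 7.32 to 8.21, 8.16 and 8.08, without overlap in either fraction. Kpna2 rose in polysomal RNA by 0.69 and had an M of 0.48 ± 0.11.

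Kpna3 (importin alpha 4) differed from these in that its non-polysomal signal fell, by 0.55, while its polysomal change was -0.08, and M was 0.46 ± 0.13. The 2 other Kpna3 probes gave an M of 1.31, the called value, and 0.36, with non-polysomal changes of -1.13 and -1.23. With the 75th percentile the M of Kpna2 and Kpna3 was 0.05 and 0.04, that is, at the median of the array.

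Of the 11 exportin probes 0 were called in M, against 12.1% above 1 and 1.31% below -1 over all probes. An adjusted p below 0.05 was found for 3, against 14849 of 41155 probes over the array. Xpo1 (CRM1), the receptor for leucine-rich export signals, read 9.18, 9.13 and 9.01 in NP 0 h, 10.13, 10.30 and 10.48 in P 0 h, 8.88, 8.92 and 8.87 in NP 6 h and 10.07, 10.02 and 10.12 in P 6 h. The NP change was -0.22 (adjusted p = 0.095), the P change -0.23 (adjusted p = 0.051), and M was -0.01 ± 0.13. Cse1l, which returns importin alphas to the cytoplasm, had an M of 0.31 ± 0.13 (adjusted p = 0.082). Its second probe, above background on every array, had 0.43 ± 0.11 (adjusted p = 0.014 by limma). With the 75th percentile these values were -0.11 and 0.0096.

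Xpo6, the exporter of actin, rose in both fractions. Its P arrays went from 8.91, 8.99 and 8.94 to 10.02, 9.93 and 9.96 and its NP arrays from 6.81, 6.99 and 6.75 to 7.77, 7.75 and 7.74, and M was 0.12 (adjusted p = 0.36), which turned to -0.30 with the 75th percentile. Xpo5, which exports microRNA precursors, had the highest M among the main probes of the well measured exportins, 0.76 ± 0.12. The second Xpot probe, above background on every array, had 0.89 ± 0.15, while the main Xpot probe had 0.34. Xpo4 had 0.79 ± 0.38 at a probe that was above background on polysomal arrays only.

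The Ran cycle showed opposite directions. Ran had NP arrays of 15.02, 14.94 and 14.86 at 0 h and 14.82, 14.74 and 14.77 at 6 h, and P arrays of 16.33, 16.48 and 16.38 at 0 h and 17.45, 17.18 and 17.54 at 6 h. Polysomal Ran thus rose 1.99-fold, non-polysomal Ran moved by -0.16 (adjusted p = 0.26), and M was 1.15 ± 0.14 (adjusted p = 0.00019). The direction held with the 75th percentile (0.73), but with quantile normalization M was 0.18 with an adjusted p of 0.33.

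Rcc1, the exchange factor of Ran, had the largest change in non-polysomal RNA of all members. It rose there from 6.55, 6.76 and 6.48 to 8.98, 8.85 and 8.93, or 5.02-fold, and in polysomal RNA from 7.94, 8.13 and 8.00 to 9.81, 9.73 and 9.77, or 3.35-fold. All 6 arrays at 6 h lay above all 6 arrays at 0 h. Because the non-polysomal rise was larger, M was -0.58 ± 0.13 (adjusted p = 0.0052) and lay between -0.69 and -0.50 within the slides. Rangap1 had a polysomal change of 0.01 (adjusted p = 0.90) and an M of 0.21 ± 0.13.

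In the Y complex 1 of 8 probes (12.5%) was called above 1 in M, against 12.1% of all probes. It was that of Nup37, a small beta-propeller subunit. Its P arrays read 10.02, 10.26 and 10.25 at 0 h and 10.40, 10.35 and 10.61 at 6 h, whereas its NP arrays fell from 8.35, 8.45 and 8.32 to 7.27, 7.22 and 7.31. Its polysomal change was 0.28, or -0.21 with the 75th percentile. The non-polysomal change of -1.11 made up most of the M of 1.38 ± 0.13 (adjusted p = 5.0e-05), and within the slides M was 1.32 to 1.46. With the 75th percentile M was 0.96 and was not called. Nup133 fell in both fractions, by 0.80 in polysomal RNA, from 11.38, 11.56 and 11.45 to 10.59, 10.62 and 10.80, and by 0.99 in non-polysomal RNA, and so had an M of 0.19 (adjusted p = 0.21). Nup107 rose by 0.50 and 0.52, with an M of -0.01. Nup160 had -0.35 ± 0.13 (adjusted p = 0.064). Subunits of this complex therefore did not share a direction.

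In the inner ring most probes had an M below 0. Of its 7 probes 5, from the large scaffold proteins Nup188, Nup155 and Nup205, had an adjusted p below 0.05 with M below 0, and 1, of Nup35, above 0. Over the array the same held for 1640 and 13209 of 41155 probes. No inner ring probe was called at the limit of -1, against 1.31% of all probes. Nup188 had the lowest M of all members, -0.89 ± 0.17 (adjusted p = 0.0030). Its NP arrays rose from 4.84, 4.93 and 4.60 to 5.57, 5.68 and 5.76, while its P arrays read 7.08, 7.32 and 7.20 at 0 h and 7.01, 7.39 and 7.17 at 6 h. The polysomal arrays overlapped and the non-polysomal arrays did not.

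Nup155 behaved like Nup188 at its main probe only. That probe went from 7.33, 7.16 and 7.26 to 8.08, 8.02 and 8.11 in NP and from 8.80, 9.00 and 9.13 to 9.18, 9.03 and 9.28 in P, with an M of -0.64 ± 0.14. The other Nup155 probes gave -0.75 and -0.32, both with NP arrays that were all higher at 6 h. The P arrays were all lower at 6 h at the former and all higher at the latter. With the 75th percentile their polysomal changes were -0.91 and -0.39. In Nup205 the polysomal side moved instead, from 7.07, 7.26 and 7.12 to 6.65, 6.48 and 6.69, a fall of 0.55, while NP changed by -0.03, and M was -0.52 ± 0.13. This contrast between the genes holds for the spike-in scaling. With the 75th percentile the polysomal change was below 0 in each, at -0.50 for Nup188, -0.30 for the main Nup155 probe and -1.03 for Nup205. All 3 within-slide values of M were below 0 for each of these 3 genes. With the 75th percentile Nup188 (-1.31) and 2 Nup155 probes (-1.17 and -1.06) were called below -1, and Nup205 was at -0.94.

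The 3 scaffold genes kept M below 0 at the main probe in the deposited log2 values too, at -0.47, -0.45 and -0.40, while the third Nup155 probe turned to 0.20. A straight line through the spike-ins gave Nup205 an M of 0.28. The other inner ring genes, the membrane-binding Nup35 with an M of 0.45 ± 0.10 and Nup93 with 0.09 ± 0.10 (-0.34 with the 75th percentile), lay at and below the array's median.

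The nuclear basket genes moved apart. Nup50, which helps to release cargo from importin alpha, rose in polysomal RNA from 9.79, 10.02 and 9.94 to 11.62, 11.51 and 11.63, that is 3.19-fold, and in non-polysomal RNA from 8.24, 8.25 and 8.13 to 8.67, 8.61 and 8.58, or 1.33-fold. Its M was 1.26 ± 0.11 (adjusted p = 3.1e-05), and the other Nup50 probes gave 1.07 and 0.97. With the 75th percentile these values were 0.84, 0.65 and 0.54, and none was called. No group overlapped with another at the main probe. Nup153 rose more in the non-polysomal fraction (1.22) than in the polysomal fraction (0.81), from 8.45, 8.41 and 8.18 to 9.60, 9.57 and 9.53 in NP and from 9.60, 9.83 and 9.74 to 10.51, 10.45 and 10.62 in P. Its M was -0.41 ± 0.13 (adjusted p = 0.036), and with the slide as a block the adjusted p was 0.063. The other Nup153 probes gave -0.27 and -0.88.

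**Figure D4:**
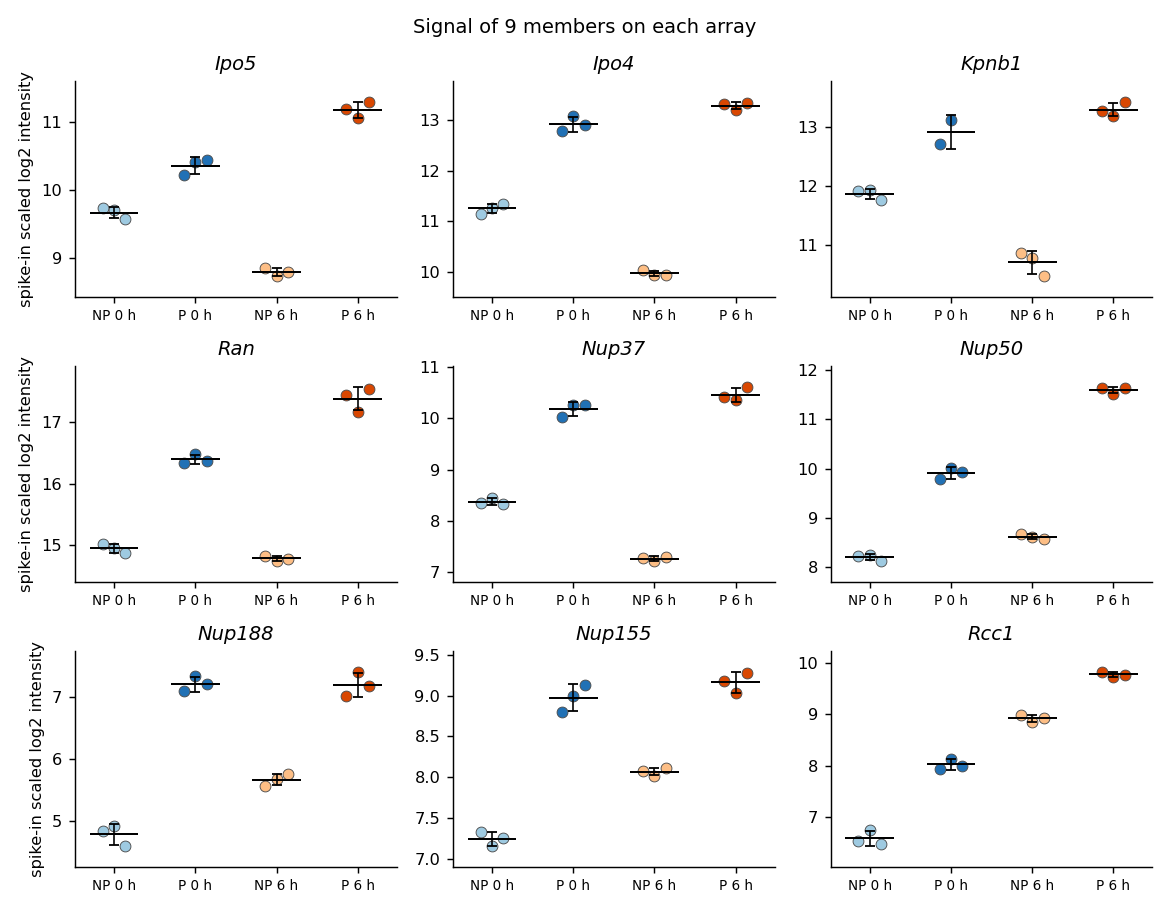
Spike-in scaled log2 intensity of the main probe of 9 members on each of the 12 arrays, in non-polysomal (NP) and polysomal (P) RNA at 0 h and 6 h, with points for replicates and lines for the mean and SD (n = 3, for Kpnb1 in P 0 h n = 2). In Ipo5, Ipo4, Kpnb1 and Nup37 the NP points are lower and the P points higher at 6 h (a P direction that turned with 75th percentile scaling for Ipo4, Kpnb1 and Nup37), in Nup50 both rise but P more, and in Nup188, Nup155 and Rcc1 the NP points rise more than the P points.

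The FG nucleoporins of the central channel rose together in both fractions. Nup62 rose by 1.18 in polysomal RNA, from 11.06, 11.15 and 11.15 to 12.37, 12.26 and 12.28, and by 0.87 in non-polysomal RNA. Nup54 rose by 0.81 and 0.49. At their main probes both had an M of 0.32 (adjusted p = 0.051), below the array's median, and of -0.11 with the 75th percentile. The second Nup54 probe, above background on every array, had an M of 0.53 (adjusted p = 0.0053 by limma). With the 75th percentile it was 0.10.

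On the cytoplasmic side Nup98, Nup214 and Nup88 had an M of 0.06, 0.10 and 0.21, with adjusted p of 0.75, 0.64 and 0.26, and 0 of 6 probes were called in any comparison with time. Their polysomal changes were 0.26, 0.45 and 0.33. The shares of all probes called higher and lower were 12.1% and 1.31% in M. They were 19.2% and 5.01% in polysomal RNA, and 8.09% and 8.14% in non-polysomal RNA. In the membrane ring Nup210 was above background on no array. Nup210l had the highest M of all, 3.67 ± 1.21, but it was above background on 2 of 12 arrays. Its P 6 h arrays read 6.12, 1.94 and 5.12 and the 9 others lay between 0.51 and 1.58, so replicate 2 lay close to the other groups. With 2 of the 3 P 6 h arrays above background, no lower bound of the polysomal rise can be given. With the slide as a block the adjusted p of M was 0.054. The second Nup210l probe, above background on 1 array, had an M of -0.87 that was below 0 within all 3 slides.

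Other genes of nuclear transport, among them Ran-binding proteins, mRNA export factors and nucleoporins with other names, served as a comparison list of 33 genes and 57 probes. Of these, 9 probes (15.79%) were called above 1 in M and 1 (1.754%) below -1, against 12.1% and 1.31% of all probes, with a median of 0.42. The highest M was that of Phax, the adaptor for U snRNA export, at 1.95 ± 0.15, and the lowest that of Tpr, the main filament protein of the nuclear basket, at -1.31 ± 0.14. In polysomal RNA 26 of the 57 probes were called higher at 6 h and 2 lower, against 19.2% and 5.01% of all probes, and their median change was 0.94, compared with 0.37 for the members and 0.54 for all probes.

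Promoter sequences from RefSeq (GRCm38.p6) were matched to 36 of the 46 genes, from 250 bases before to 50 after the transcription start. The E-box CACGTG, a palindrome and so the same on both strands, which is the core site of Myc, Max and USF proteins, was present in 8 of the 43 promoters of the members (18.6%). In all 32851 promoters of this length the share was 7.15%. The promoters holding it were those of Ipo4, Ipo7, Nup188, Nup54, Nup93, Ran, Tnpo2 and Xpot, which spanned the range of M from the lowest member, Nup188, to Ipo4. Of the 7 genes whose main probe was called in M and was above background in at least 1 group, 3 held the motif. Counted by gene, it was present in 22.2% of the members with a promoter and in 8.09% of all genes with one. A relation between the motif and M was not tested. For the 3 called genes with the motif a stretch of 60 bases around it is shown, with the motif in capitals. For Ipo5, the gene with the highest M among the 7 and without the motif, the 60 bases before the first of its starts in the table are shown.

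Ipo4 (chr14:55635655-55635714, minus strand, bases -30 to 30): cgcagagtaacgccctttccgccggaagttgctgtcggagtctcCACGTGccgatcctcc
Ipo7 (chr7:110018151-110018210, plus strand, bases -164 to -105): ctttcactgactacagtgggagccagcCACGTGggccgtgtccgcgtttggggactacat
Ran (chr5:129020011-129020070, plus strand, bases -145 to -86): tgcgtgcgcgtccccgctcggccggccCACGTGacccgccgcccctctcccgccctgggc
Ipo5 (chr14:120911134-120911193, plus strand, bases -60 to -1): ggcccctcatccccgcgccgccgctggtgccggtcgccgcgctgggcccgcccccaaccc

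In Ipo7 and Ran the motif began at bases -137 and -118 relative to the start, in Ipo4 at base 15 of the transcript. A start with C followed by 4 pyrimidines was found in 3 of the 43 promoters (6.98%) and in 2.51% of all promoters. These matches describe letters in a window and not binding.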

How the data were processed

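RNA of the NP and P gradient pools was hybridised to one-color Agilent arrays. According to the authors, signals were normalised to spike-ins. The deposited scanner files (Feature Extraction 10.7.1.1) hold for each spot a processed intensity, already background-subtracted, a median signal and flags. A deposited series table holds log2 values, which on each array equal the log2 median signal, without background subtraction, plus a constant.

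The log2 processed intensity was used, outlier spots were left out, spots of a probe were averaged and the mean of 10 spike-in transcripts (32 spots each) per array was subtracted. The files hold no mean signal, so the normexp alternative (offset 50) used the median signal. The 4 groups were fitted together in limma 3.58.1 (R 4.3.3), with Benjamini-Hochberg adjustment over all probes and limits of 0.05 and a log2 difference of 1. The call rule was tested on simulated data. With 3 arrays per group, their number limits the precision.

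Symbols came from transcript accessions through RefSeq (26690 of 41174 probes). Sequences and positions are those of RefSeq GRCm38.p6, and the array files name no position of that build. Named genes were Ran, Rcc1, Rangap1, Kpnb1, Kpna2, Cse1l, Xpo1, Nup62, Nup98, Nup153 and the members of each role with the extreme M or polysomal change. Further members were named after their values had been seen, as was the search for pyrimidine starts. The members and lists were chosen with earlier results of these data known. The alternatives were other scalings, background corrections, filters and a replicate block, and leaving out arrays.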

Additional observations from a re-analysis of the deposited data

Results flagged for a closer look

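In 14 of the named genes the change with time differed between the polysomal and the non-polysomal fraction by the interaction term (M) with an adjusted p below 0.05 in limma. M was above 0 for Ipo5 (1.69), Kpnb1 (1.53), Nup37 (1.38), Nup50 (1.26), Ran (1.15), Kpna1 (0.72), Ipo13 (0.65), Kpna2 (0.48), Kpna3 (0.46) and Nup35 (0.45). It was below 0 for Nup188 (-0.89), Rcc1 (-0.58), Nup205 (-0.52) and Nup153 (-0.41). Over the array 14849 of 41155 probes had an adjusted p below 0.05 in M, and the median M was 0.49. The values of Kpna2, Kpna3 and Nup35 thus lay at or just below that median.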

How the results depend on the processing

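The result most open to the processing was the level of M as a whole. With 75th percentile scaling the members' median M was -0.075, with quantile normalization -0.19, with a line fitted to the spike-ins 0.93, with normexp on all spots 1.71 and without replicate 2 it was 0.45, then above the all-probe median of 0.42. Set beside these, the all-probe medians up to the normexp fit were, in the same order, 0.06, -0.0007, 1.41 and 3.20. Each of them lay above the median of the members. The cause of the shifts between settings was not tested. Over the settings that left out replicates or single arrays the members' median lay between 0.28 and 0.45. The first normexp fit compressed 3 arrays (NP 0 h replicate 1, P 6 h replicates 2 and 3) to a log2 range (of the bulk of their spots) of 2.56, 3.36 and 5.66, against 6.40 to 7.53 on the others.

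Calls of M above 1 numbered 5 (75th percentile), 3 (quantile), 37 (spike-in line), 0 (normexp on all spots) and 7 (mean of the probes of a gene, counted in genes), and calls below -1 numbered 5 and 6 with the first 2 scalings. Polysomal changes above 1 numbered 5, 5, 37, 2 and 7 in the same order, and 7 when normexp left out spots of uneven background in its fit, an alternative added after the data had been seen. Polysomal changes below -1 numbered 5 and 5 with the first 2 scalings and 0 with the spike-in line, the deposited log2 values, either normexp fit and the mean of the probes. Non-polysomal calls above 1 were 3 with the deposited values, 0 and 2 with the normexp fits and 2 with the mean of the probes, and those below -1 were 3, 2, 3 and 2. The polysomal excess at 0 h was called in 28 (75th percentile), 42 (quantile), 21 (normexp on all spots) and 37 (mean of the probes) cases, and its opposite in 3, in 1 with quantile and in 1 with the spike-in line. At 6 h the excess was called in 38, 38, 46 and 40 cases, and its opposite in 0 with the spike-in line, the deposited values, either normexp fit, dim probes left out and the mean of the probes. The shares over all probes with the 75th percentile are given above. For the other alternatives no share over all probes was counted, so these numbers describe the members alone. With the spike-in line the all-probe median M was itself 1.41.

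Leaving out replicates or single arrays gave 8 to 14 calls of M above 1, 0 to 2 below -1, 9 to 16 polysomal changes above 1 and 0 to 2 below -1, 5 to 7 and 6 to 8 non-polysomal calls, 64 to 68 and 0 to 1 calls at 0 h, and 67 to 71 and 1 at 6 h. The calls of M below -1 were 2 without replicate 2 and without NP 0 h replicate 2. Polysomal changes below -1 were 2 without replicate 1 and 0 without replicate 2, without replicate 3 and without P 6 h replicate 3. Without a whole replicate the M of Nup205 missed the adjusted limit each time, that of Rcc1 without replicate 1 or 3, and that of Nup188 without replicate 3.

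Among named genes M turned its sign as follows. With the 75th percentile it was -0.22 for Rangap1, -0.23 for Nup133, -0.11 for Nup54, -0.11 for Nup62, -0.32 for Nup214, -0.22 for Nup88, -0.36 for Nup98, -0.11 for Cse1l and -0.30 for Xpo6. With quantile normalization these were -0.38, -0.41, -0.20, -0.29, -0.53, -0.59, -0.41, -0.15 and -0.41, with Kpna2 at -0.29, Ipo13 at -0.041 and Nup35 at -0.22. The spike-in line gave 0.40 for Nup107, 0.32 for Nup160, 0.49 for Xpo1, 0.34 for Ipo8, 0.28 for Nup205 and 0.061 for Nup153. Normexp on all spots gave 0.89 for Rcc1, 0.50 for Nup107, 1.49 for Nup160, 0.49 for Xpo1, 1.27 for Ipo8, 2.09 for Nup188, 1.96 for Nup205 and 0.17 for Nup153. Nup107 was 0.079 in the deposited values and 0.069 with the other normexp fit, and the mean of the probes gave 0.14 for Nup160, -0.27 for Nup98 and 0.040 for Xpo1. Leaving out arrays, the M of Nup107 lay between -0.10 and 0.068 and that of Xpo1 between -0.14 and 0.089. The signs of Ipo5, Kpnb1, Nup37, Nup50, Ran, Kpna1, Kpna3 and Xpo4 did not turn in any of the 26 alternatives.

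The replicate number is also the slide. Of 18 same-numbered pairs 4 had deviations from the group means that correlated above 0.1, so that not every pair did, while the mean correlation within a number was 0.08, 0.06 and 0.13, against -0.04, -0.03 and -0.06 with other numbers, and 8 of 12 arrays were closest to their own number, a hint of pairing from the data. With it as a replicate block 12 probes were called in M above 1, and the M of Nup153 and of the dim Nup210l probe missed the limit (adjusted p of 0.063 and 0.054). No other M of a gene chosen by the naming rule changed its call.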
